A study of Mus musculus with 11 samples.

Results

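The genes described here are the neurotrophin ligands Bdnf and Ntf3, the receptor tyrosine kinases Ntrk2 and Ntrk3, the pan-neurotrophin receptor Ngfr and the sorting receptor Sort1, in mouse neural progenitor cell (NPC) cultures and in the embryonic dorsal telencephalon with and without the RNA-binding protein Syncrip. They are 6 of the 48440 genes in the count table of the cultures and 6 of the 32285 genes in the single-cell matrices. The 6 were picked by name with the difference between genotypes in cultures and in tissue already in view, in particular that of Ntrk2, so their genotype values are a description and carry no test. All 6 had a count in some culture and a unique molecular identifier (UMI) in some cell. Of the 6, 5 passed the filter on low counts in the cultures and Ntf3 did not.

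The wild-type (WT) and conditional knockout (cKO) samples were taken at E14.5 (embryonic age in days) on a C57BL/6 background, per the methods. The cKO was Syncrip fl/fl;Emx1-Cre, in which Cre acts in the Emx1 lineage of the dorsal telencephalon, so that cells from the ganglionic eminence (GE) lie outside the lineage that Cre targets. The bulk RNA-seq covered 3 WT and 3 cKO cultures of NPCs, which the methods describe as taken from the lateral ventricle wall and grown with EGF and bFGF. No source states that the cultures came from separate embryos. A p-value over them sets the genotype difference against the spread between these samples, part or all of which may be technical. Y-linked counts, given below, differed between cultures of the same genotype. The single-cell RNA-seq covered the dorsal telencephalon of 1 WT and 1 cKO embryo, so that every genotype difference in tissue is a difference between 2 libraries with no replicate and no test.

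Neurotrophins are secreted growth factors of neurons. BDNF is the main ligand of TrkB, the product of Ntrk2, and NT-3, the product of Ntf3, is the main ligand of TrkC, the product of Ntrk3. Trk receptors signal through adaptors to the MAP kinase, PI3 kinase and phospholipase C gamma pathways and induce immediate early genes. Ngfr encodes p75NTR, which binds every mature neurotrophin and, together with sortilin, the product of Sort1, the uncleaved proneurotrophins. In the developing cortex, truncated TrkB and TrkC isoforms without a kinase domain are made beside the full-length receptors.

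The cultures held 16962903 to 22708400 counts each, and mitochondrial genes took 2.91 to 4.80% of them. Syncrip, the targeted gene, was at 77.95, 79.8 and 79.9 CPM (counts scaled to library size) in the WT cultures against 90.3, 88.7 and 81.5 CPM in the 3 cKO cultures (log2 fold change 0.13 ± 0.08, SE, edgeR quasi-likelihood test, adjusted p = 0.18). Summed over all cells of the tissue it was at 287 CPM in WT and 311 in cKO. Counts over the whole gene and 3′ UMIs do not resolve the exons deleted by Cre, so these values check nothing about the deletion. The 2 tissue libraries held 8214 and 9559 cells after filtering, with medians of 11705 and 11016 UMIs, and shared 22 cell barcodes. Y-linked genes had 22062 UMIs in the WT and 211 in the cKO library and Xist had 2 and 105339, so sex and genotype cannot be told apart in the tissue. The Y-linked genes had 5903 to 9232 counts in each of WT culture 1, WT culture 2 and cKO culture 1, and 0 or 1 in the others. Xist was listed at 0 in every culture, so the sex of the cultures was read from the Y-linked genes alone.

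Promoter sequences are shown for the 3 members whose genotype values the results turn on and for which the reference held a promoter. The RefSeq promoter table (GRCm38.p6) matched 4 of the 6 members, namely Ntrk2, Bdnf, Ntf3 and Ngfr, with 7 promoters for Bdnf and 2 for Ntf3. Each window runs 5′ to 3′ on the gene's strand over the 250 bases before the start, with bases of annotated exons left out, and capitals mark motif matches. The motifs searched on both strands were the CRE (TGACGTCA), the Egr site (GCGTGGGCG), the NFI core (TTGGC), the RBPJ site (GTGGGAA) and the SP1 box (GGGCGG).
Ntrk2: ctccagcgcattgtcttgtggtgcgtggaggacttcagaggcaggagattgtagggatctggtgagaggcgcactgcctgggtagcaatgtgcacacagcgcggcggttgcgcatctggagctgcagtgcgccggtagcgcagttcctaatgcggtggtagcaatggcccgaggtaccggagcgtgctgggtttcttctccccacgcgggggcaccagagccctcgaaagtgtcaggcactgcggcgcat
Ngfr: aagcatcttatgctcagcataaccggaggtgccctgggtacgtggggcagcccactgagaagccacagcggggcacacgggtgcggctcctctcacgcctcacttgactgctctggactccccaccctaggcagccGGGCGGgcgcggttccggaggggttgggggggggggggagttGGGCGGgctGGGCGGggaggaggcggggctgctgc
Ntf3: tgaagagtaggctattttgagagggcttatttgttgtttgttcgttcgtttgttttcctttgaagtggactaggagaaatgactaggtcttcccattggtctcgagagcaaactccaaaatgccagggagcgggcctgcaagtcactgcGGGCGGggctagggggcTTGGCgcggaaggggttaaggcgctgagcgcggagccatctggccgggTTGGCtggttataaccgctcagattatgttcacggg
The Ntrk2 window lies at chr13:58806319-58806568 on the plus strand, and none of the 5 motifs was in these letters. The Ngfr window as printed lies at chr11:95587736-95587948 on the minus strand and holds 3 of the 4 SP1 boxes found in the full 250 bases, at 114, 72 and 63 bases before the start. The Ntf3 window is the promoter nearer the coding exon, at chr6:126164961-126165210 on the minus strand, with 1 SP1 box 101 bases and 2 NFI cores 84 and 36 bases before the start. Of the 7 Bdnf promoters, 2 held an SP1 box and 2 an NFI core. No CRE, Egr or RBPJ motif was in any of the windows of these 4 genes, and no 2 matches overlapped. Among all 32851 promoters of the same length, 1.55% held the CRE, 0.536% the Egr site, 41.5% the NFI core, 5.42% the RBPJ site and 32.7% the SP1 box. A match is a description of the letters and not a bound site.

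In the cultures, the receptors differed between genotypes in opposite directions. The ligands Bdnf and Ntf3 and the receptor Ngfr were near the lower end of detection. Ntrk2 was 0.483-fold of WT in cKO, Sort1 and Ngfr were lower as well, and Ntrk3 was 1.47-fold of WT. Of the 5 members that passed the low-count filter, 1 (Ntrk3) lay above WT in all 3 cKO cultures, 3 (Ntrk2, Ngfr and Sort1) lay below and 1 (Bdnf) overlapped. Among all 14432 genes tested, 25.7% had cKO cultures all above WT and 24.7% all below. The edgeR test called 39.5% of all genes at an adjusted p under 0.05, 19.7% higher and 19.8% lower in cKO, so a difference between these cultures was common. Since the members were chosen on this contrast, nothing is read from their counts.

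Among the ligands, Bdnf (chr2:109674700-109727007, plus strand, mm10) was at 3.56, 2.67 and 3.26 CPM in the WT cultures and at 4.12, 3.61 and 2.70 CPM in the cKO cultures. The genotypes overlapped, with a log2 fold change of 0.13 ± 0.23 (SE, n = 3 each). The annotation holds 1 gene on the opposite strand that overlaps Bdnf, 3 for Ntrk2, 2 for Ntrk3 and 1 for Sort1, and 1, 2 and 1 overlapping genes on the same strand for the latter 3. No source states whether the counting used strand, so reads from such pairs cannot be told apart. Ntf3 (chr6:126101412-126166910, minus strand) had 0 counts in each WT culture and 1, 0 and 1 count in cKO replicates 1, 2 and 3, so no difference was detectable at this depth.

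Ntrk2 (chr13:58806596-59133970, plus strand), the receptor of BDNF, was at 1939, 1863 and 2190 CPM in the WT cultures and at 963, 963 and 969 CPM in the cKO cultures. The lowest WT culture was far above the highest cKO culture, and the mean was 965 ± 3.36 CPM in the cKO and 1997 ± 172 CPM in the WT cultures (SD, n = 3). The log2 fold change was -1.05 ± 0.09 (SE), or 0.483-fold. The annotation holds 7 protein-coding Ntrk2 transcripts with 5 coding lengths and 6 coding 3′ ends, and whole-gene counts do not separate full-length from truncated TrkB. In bulk samples such as these, fewer cells of a type and less RNA per cell cannot be told apart.

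Ntrk3 (chr7:78175959-78738012, minus strand), the receptor of NT-3, was at 237, 218 and 249 CPM in the WT cultures and at 369, 330 and 338 CPM in the cKO cultures. Every cKO culture was above every WT culture, with a log2 fold change of 0.56 ± 0.08 (SE). The WT mean was 235 ± 15.8 CPM and the cKO mean 346 ± 20.7 CPM (SD, n = 3). Its 6 coding transcripts also share 1 count.

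Ngfr (chr11:95568818-95587735, minus strand), which encodes p75NTR, was at 2.43, 3.23 and 4.28 CPM in the WT cultures and at 0.932, 2.04 and 1.35 CPM in the cKO cultures. The groups did not overlap, though the lowest WT and the highest cKO culture lay close together and each culture held only 19 to 96 counts. The log2 fold change was -1.22 ± 0.32 (SE). Sort1 (chr3:108284082-108361511, plus strand), which sorts proneurotrophins and other cargo between the Golgi and the cell surface, was at 160, 162 and 176 CPM in WT and at 99.6, 107 and 99.7 CPM in cKO. The groups lay well apart, with a log2 fold change of -0.70 ± 0.07 (SE).

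**Figure D1:**
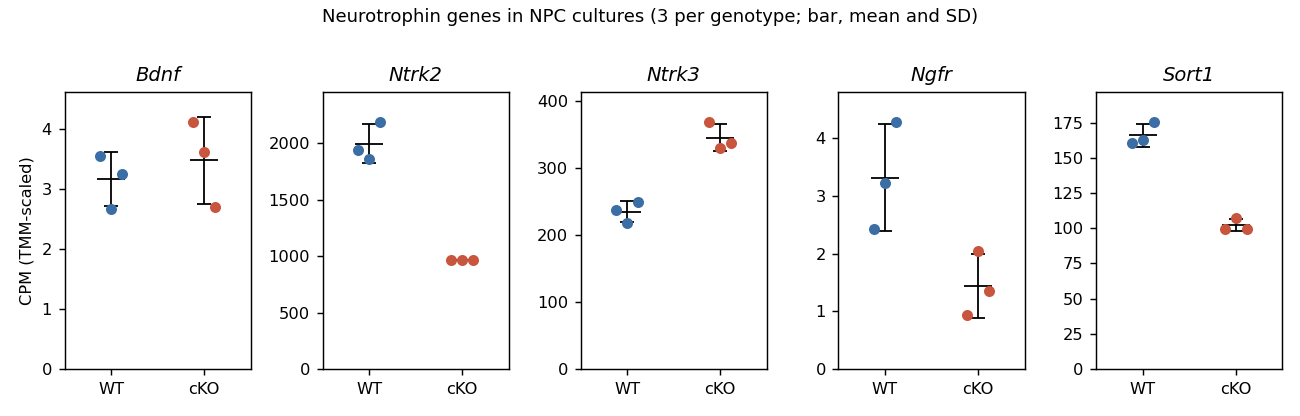
CPM of the 5 members that passed the low-count filter in the 3 WT and 3 cKO NPC cultures (points), with the mean and SD as bars and each vertical axis starting at 0. The 3 cKO points of Ntrk2 sit near 965 CPM below all WT points, those of Sort1 and Ngfr also lie below WT, those of Ntrk3 lie above, and those of Bdnf overlap WT.

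Per kilobase of annotated exon, which allows genes to be compared, Ntrk2 was the most abundant member in the WT cultures, at 104 ± 8.87 CPM per kb (SD, n = 3). Sort1 followed at 21.95 ± 1.09 and Ntrk3 at 7.78 ± 0.52 CPM per kb. Ngfr was at 0.962 ± 0.27 and Bdnf at 0.509 ± 0.07 CPM per kb, and Ntf3 was at 0. In the cKO cultures the mean levels were 50.02 CPM per kb for Ntrk2, 13.5 for Sort1, 11.5 for Ntrk3, 0.418 for Ngfr and 0.559 for Bdnf, with SDs of 0.162 for Ngfr and 0.116 for Bdnf, whose order was therefore within the spread of the cultures. Per kilobase of the longest transcript the WT levels were higher for 4 of the 5, among them 228 for Ntrk2 and 11.9 for Ntrk3, in the same order.

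Marker lists of several cell types and regions were read in the same cultures. Their genes are not exclusive to those cells. Aldoc of the astrocyte list was among the leading genes of an apical progenitor cluster in the tissue, and Pax6 of the dorsal list is also an apical progenitor marker. Of 8 astrocyte markers tested, 7 fell and none rose at an adjusted p under 0.05 by edgeR, and their summed level ran from 9997 to 13130 CPM over the WT and from 5735 to 6031 CPM over the cKO cultures, with Gfap listed at 0 in every culture. Aqp4, the astrocyte water channel, had a WT mean of 274 CPM and a cKO mean of 65.8 CPM, and Gja1, a gap junction connexin of astrocytes, 1190 and 383 CPM. Of 9 neuronal markers tested, 7 fell and none rose, among them Stmn2, a microtubule regulator of growing axons, with a WT mean of 15.1 CPM and a cKO mean of 0.152 CPM. The summed neuronal level ran from 1988 to 2336 CPM over the WT and from 2104 to 2239 CPM over the cKO cultures, most of it from Map2, with Tubb3 listed at 0. Of 5 oligodendrocyte lineage markers 2 rose and none fell, and of 4 mural and endothelial markers 2 fell. Of 4 dorsal telencephalon markers 1 rose and 1 fell, and of 4 ventral markers 1 fell. Over all genes tested, 19.7% were called higher and 19.8% lower, so nothing is read from the counts of these short lists. Tubb3 and Gfap are each overlapped by 1 other annotated gene, and a listed 0 need not mean that a transcript was absent. The part of astrocytic or neuronal cells in the Ntrk2, Sort1 and Ngfr differences was not tested.

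The other genes of the pathway were taken from lists drawn up by function while earlier results of these data were known. The lists may therefore not be independent of how their genes moved. Of 12 other ligands, receptors and receptor partners, 9 could be tested, and 3 rose and 3 fell in cKO. Over all genes, 19.7% were called higher and 19.8% lower. The median log2 fold change of the list was -0.15, against 0.00 over all genes. Among the relatives of sortilin, Sorcs1 was at 25.4, 26.01 and 23.8 CPM in WT and at 51.0, 50.9 and 44.1 CPM in cKO, a rise of 0.96 ± 0.10 on the log2 scale (adjusted p = 5.3e-06). Sorcs2, a proneurotrophin co-receptor, rose by 0.32 ± 0.08 (adjusted p = 0.00453) and Sorcs3 by 0.52 ± 0.16 (adjusted p = 0.0206), while Sorl1, which binds TrkB in transport, was at -0.16 ± 0.11 (adjusted p = 0.273). So the 3 Sorcs genes lay above WT in cKO cultures in which Sort1 lay below.

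Other genes of the list encode receptor partners, a homologue and a processing enzyme. Lingo1, a co-receptor of p75NTR at the neuronal surface, was at 64.1, 85.8 and 92.4 CPM in WT and at 32.7, 37.8 and 36.7 CPM in cKO, and fell by 1.18 ± 0.12 on the log2 scale (adjusted p = 7.28e-06). Kidins220, a scaffold of Trk receptors and p75NTR, fell by 0.36 ± 0.08 (adjusted p = 0.00275), and Furin, which cleaves proneurotrophins, by 0.29 ± 0.11 (adjusted p = 0.0445) with cultures that overlapped. Rtn4r, the Nogo receptor that pairs with p75NTR, was at -0.46 ± 0.19 (adjusted p = 0.0651) and Nradd, a p75NTR homologue, at 0.05 ± 0.25 (adjusted p = 0.887). The ligand Ntf5, at 0 to 0.175 CPM, did not pass the filter. The Sorcs3 call was lost without WT replicate 3 or without cKO replicate 1 or 3, and the Furin call without WT replicate 2 or 3 or cKO replicate 1 or 3.

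Downstream of the Trk receptors, 4 of 33 adaptors and kinases rose and 8 fell, with a median log2 fold change of -0.07, beside 19.7% of all genes called higher and 19.8% called lower. Shc3, the neuronal Shc adaptor, was at 47.7, 56.9 and 57.7 CPM in WT and at 106, 106 and 98.2 CPM in cKO, a rise of 0.94 ± 0.09 (adjusted p = 2.9e-06). The kinase Braf, which activates the MAP kinase cascade, rose by 0.32 ± 0.08 (adjusted p = 0.00772). The adaptor Grb2 fell by 0.56 ± 0.08 (adjusted p = 0.000112), the MAP kinase Mapk3 by 0.47 ± 0.10 (adjusted p = 0.00196) and the phosphatase Ptpn11 by 0.37 ± 0.07 (adjusted p = 0.00142). The Braf call was lost without cKO replicate 1. The count of rises went from 4 to 8 without WT replicate 1 and to 2 without cKO replicate 1, and the count of falls from 8 to 5 without WT replicate 2 or without cKO replicate 3.

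Of 16 partners of p75NTR, 1 rose and 5 fell (median -0.14), beside the same 19.7% and 19.8% of all genes. Traf6, an adaptor of p75NTR to NF-kappa B, rose by 0.22 ± 0.09 (adjusted p = 0.0496), a call that was lost without WT replicate 2 or without any 1 cKO replicate. Zfp110, the p75NTR-binding zinc finger protein NRIF, fell by 0.51 ± 0.10 (adjusted p = 0.00122) and the GTPase Rhoa by 0.35 ± 0.08 (adjusted p = 0.00412). Without cKO replicate 3 the count of falls went from 5 to 2.

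All 12 genes of a chosen list of neurotrophin-induced transcripts rose in the cKO cultures, beside 19.7% of all genes called higher. Their median log2 fold change was 2.93. The list was drawn up with earlier results of these data known. They are immediate early and activity-induced genes that many growth factors and stimuli induce, and the cultures contained EGF and bFGF. Egr1, an immediate early zinc finger factor, was at 57.2, 56.5 and 60.0 CPM in WT and at 1000, 1088 and 1064 CPM in cKO, a rise of 4.18 ± 0.09 (adjusted p = 1.09e-12). Junb, an AP-1 subunit, was at 4.32, 4.46 and 7.27 CPM in WT and at 70.5, 99.7 and 96.9 CPM in cKO (4.05 ± 0.20, adjusted p = 3.24e-08). Egr3, a BDNF-responsive relative of Egr1, had 2, 1 and 0 counts in WT and 239, 221 and 224 counts in cKO (adjusted p = 3.86e-09), and its fitted fold change depends on the prior count. Even the smallest rise of the list passed the test, that of Homer1, a postsynaptic scaffold gene, at 0.31 ± 0.09 (adjusted p = 0.0167).

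**Figure D2:**
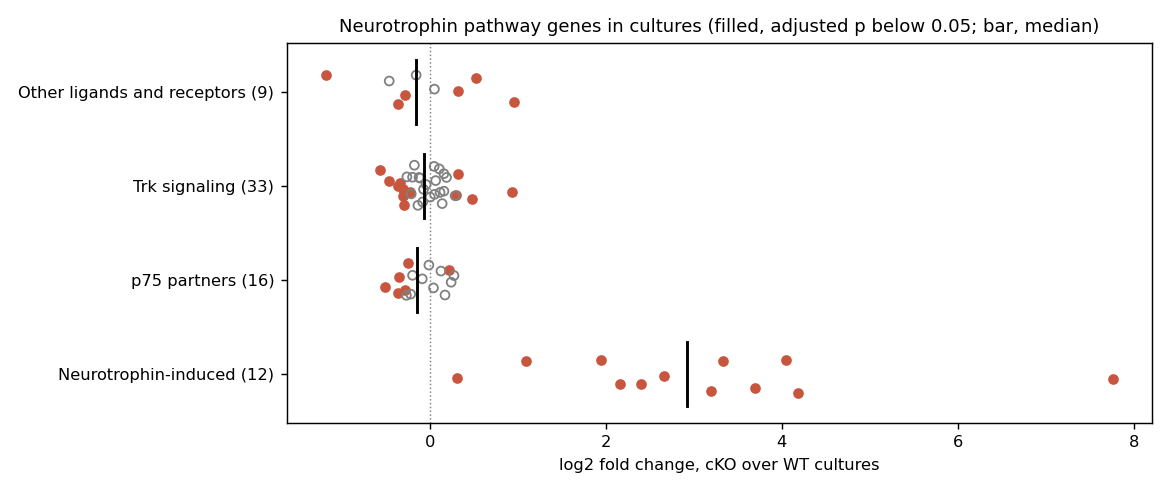
Log2 fold change, cKO over WT cultures, of the tested genes of the 4 pathway lists (number tested in parentheses). Filled points passed an adjusted p of 0.05, open points did not, and bars mark the list medians, which lie between -0.15 and -0.07 for the first 3 lists and at 2.93 for the neurotrophin-induced genes.

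In the tissue, cells were clustered without the neurotrophin genes and clusters were named from marker lists. The classes held 946 WT and 1281 cKO apical progenitor (AP)-like cells, 734 and 816 intermediate progenitor (IP)-like cells, 1673 and 1536 migrating neuron-like cells, 1495 and 1680 immature neuron-like cells, 64 and 111 Cajal-Retzius-like cells and 1192 and 1637 GE-like cells. Fibroblast-like cells numbered 116 and 108, endothelial-like 24 and 33, microglia-like 31 and 49 and red blood-like 54 and 56, and 1885 and 2252 cells stayed unnamed. The fibroblast-like cluster also carried pericyte markers. Tissue levels are CPM, the UMIs of the gene scaled to all UMIs of the class, with exact 95% intervals in parentheses. The intervals cover only counting error, and where no UMI was seen up to 3 are allowed. UMIs were read near the 3′ end, so levels are compared between classes and not between genes.

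The ligands were sparse. Bdnf had 105 UMIs in WT and 108 in cKO, of which immature neuron-like cells held 51 (48.6%) and 39 (36.1%), the WT level there being 2.04 CPM (1.52 to 2.69). Unnamed cells held 30 and 37 of the Bdnf UMIs. Its Cajal-Retzius level of 6.82 CPM rested on 6 UMIs (2.50 to 14.9), and that of the fibroblast-like cells (2.74) on 2 UMIs, so the order of these 3 classes was within counting error. In migrating neurons, IPs, GE cells and APs Bdnf was at 0.395, 0.287, 0.278 and 0.159 CPM, with overlapping intervals, all below immature neurons. Endothelial, microglia and red blood cells had 0 UMIs.

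Ntf3 had 96 UMIs in WT and 275 in cKO, of which immature neuron-like cells held 65 (67.7%) and 221 (80.4%). Its WT level there was 2.61 CPM (2.01 to 3.32), above GE cells (0.278), migrating neurons (0.247), IPs (0.0956) and APs (0.0794), which did not differ beyond their intervals. The Cajal-Retzius, endothelial, fibroblast-like, microglia and red blood classes had 0 Ntf3 UMIs in WT, which allows from 2.47 CPM in endothelial-like to 13.4 CPM in red blood-like cells. In WT, APs and IPs together held 5 of the Bdnf and 2 of the Ntf3 UMIs, while in cKO the APs held 16 Bdnf UMIs, at 0.884 CPM (0.505 to 1.44) against 1.48 CPM in immature neurons.

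Ntrk2 was found in both progenitors and neurons. In WT it was highest in Cajal-Retzius cells, the Reln-expressing neurons of the marginal zone, at 272 CPM (238 to 309), followed by GE cells at 199 (190 to 207), immature neurons at 115 (111 to 120) and APs at 100.1 (94.6 to 106). The intervals of these 4 did not overlap. Migrating neurons (28.1), endothelial cells (23.9) and IPs (22.5) came next, of which endothelial cells overlapped both of the others while migrating neurons and IPs did not overlap, and fibroblast-like (13.7), red blood (8.91) and microglia-like cells (2.62) had at most 10 UMIs each. Ntrk2 was therefore low in the IPs and migrating neurons that lie between APs and immature neurons.

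Within classes Ntrk2 was uneven. The GE cluster led by Sst, Nxph1 and Lhx6 was at 308 CPM (293 to 324) in WT, against 121 in the cluster led by Adarb2 and Six3, 81.6 in the cycling cluster with Dlx1 and Dlx2 among its leading genes and 65.8 in the cluster led by Isl1 and Ebf1. Among the immature neurons, the cluster led by Hs3st4 and Mc4r was at 228 (217 to 239) and the cluster led by Kctd8 and Rspo3 at 65.45 (61.7 to 69.4). These clusters were built without the neurotrophin genes, but the comparison is over cells of 1 embryo.

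Ntrk3 was ordered differently from Ntrk2. In WT it was highest in immature neurons, at 472 CPM (463 to 481), followed by migrating neurons at 358 (349 to 366), IPs at 189 (180 to 197), GE cells at 159 (152 to 167) and APs at 136 (129 to 142), with no overlap between these 5. Microglia-like (47.1), fibroblast-like (45.1) and red blood cells (35.6) overlapped, and endothelial (19.7) and Cajal-Retzius cells (13.7) were lowest and overlapped each other and, in part, the former. In Cajal-Retzius cells, where Ntrk2 was highest, Ntrk3 had 12 UMIs in WT. The Isl1 and Ebf1 cluster of the GE class, lowest in that class for Ntrk2, was at 736 CPM (685 to 791) for Ntrk3, against 84.3 to 135 in the other GE clusters.

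Ngfr had 234 UMIs in WT and 337 in cKO, and immature neuron-like cells held 77.8% and 70.6% of them. Its WT level was 19.1 CPM (10.47 to 32.1) in fibroblast-like, 11.5 (6.29 to 19.3) in endothelial-like and 7.29 (6.27 to 8.43) in immature neuron-like cells, with neighbours overlapping, and 0.928 or below in GE cells, IPs, migrating neurons and APs. The WT Cajal-Retzius, microglia-like and red blood-like cells had 0 Ngfr UMIs, which allows up to 3.41, 7.85 and 13.4 CPM. At a resolution of 1.2 the WT Ngfr level in immature neurons was 11.51 CPM, so its place beside the endothelial-like cells depends on the clustering. At a finer clustering in which pericyte-like cells separated, Ngfr had 10 UMIs in 27 pericyte-like cells (27.4 CPM, 13.1 to 50.3) and 3 UMIs in 13 fibroblast-like cells of WT (14.7, 3.04 to 43), which overlapped. Among the immature neurons Ngfr had 111 UMIs in the Hs3st4 cluster (11.9 to 17.5 CPM) and 71 in the Kctd8 cluster (3.21 to 5.18 CPM), so the immature neurons higher in Ntrk2 were also higher in Ngfr.

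Sort1 was broad. In WT it was at 165 CPM (160 to 171) in migrating neurons, 116 (112 to 121) in immature neurons, 106 (99.4 to 112) in IPs and 99.9 (94.01 to 106) in GE cells, of which IPs and GE cells overlapped. APs were at 57.2 (53.1 to 61.5) and did not differ beyond their intervals from microglia-like (57.6) and Cajal-Retzius cells (56.9), and fibroblast-like (41.0) and endothelial cells (39.5) lay just below. Red blood cells were at 4.46 CPM from 1 UMI.

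**Figure D3:**
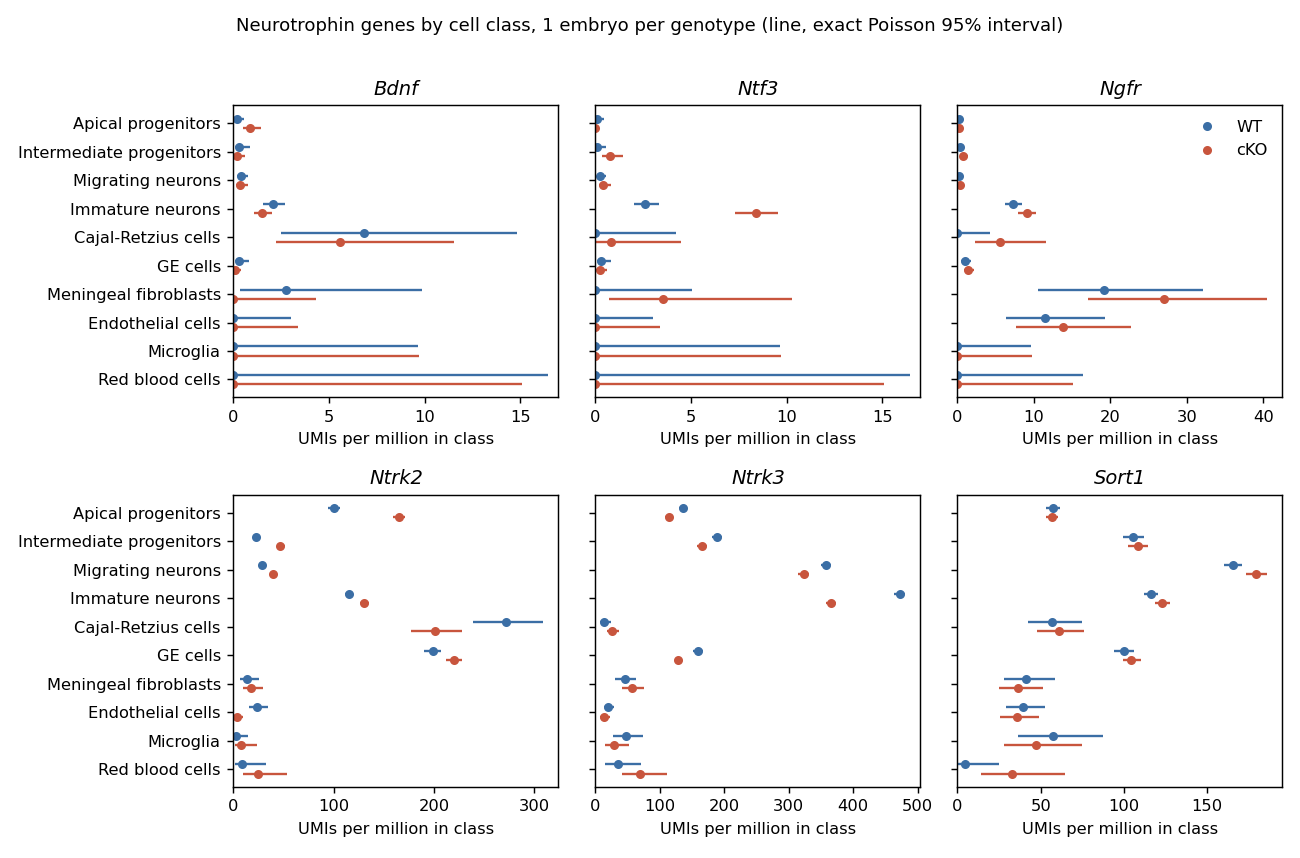
CPM for each member in 10 marker-named classes of the WT and the cKO embryo (points), with exact Poisson 95% intervals (lines). Bdnf, Ntf3 and Ngfr are on smaller scales and are near 0 in the progenitors, Ntrk2 is highest in Cajal-Retzius and GE cells, Ntrk3 in immature and migrating neurons, and Sort1 in migrating neurons.

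The genes whose WT levels were most like those of a member were taken by Pearson correlation over 23 clusters of 1 library, which share library and depth, and are given with no test. For Ntrk2 they were Ssbp2 (r = 0.88), Ccdc30 (0.86) and Cspg5 (0.86), with 0.87, 0.62 and 0.78 in the cKO library. For Ntrk3 they were Tenm3, a teneurin adhesion receptor (0.91), the RNA-binding protein gene Celf2 (0.91) and the transcription factor gene Bach2 (0.89), and for Sort1 Kdm2b (0.96), Zfp711 (0.94) and Vopp1 (0.94). For Ngfr they were Arhgap29 (0.92), the ERK phosphatase gene Dusp6 (0.92) and Sparcl1 (0.86). Ngfr was just past the limit of 200 WT UMIs, with 234, of which immature neurons held 182. Most clusters thus held few Ngfr UMIs, and its correlations rest on a small part of them. Bdnf and Ntf3 had too few UMIs for this. Among the members, Ntrk3 and Sort1 correlated at 0.77 in WT and 0.82 in cKO, and Ntrk2 and Ntrk3 at 0.14 and 0.30.

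Between the 2 embryos, Ntrk2 was higher in the cKO progenitors. In APs it had 1261 UMIs in WT and 2983 in cKO, or 100.1 and 165 CPM, a ratio of 1.65 (1.54 to 1.76). In IPs it was at 22.5 and 46.8 CPM (2.08, 1.78 to 2.44) and in migrating neurons at 28.1 and 39.5 (1.40, 1.26 to 1.57). The ratio was nearer 1 in immature neurons (1.13, 1.08 to 1.19) and in GE cells (1.11, 1.05 to 1.17), which lie outside the lineage targeted by Cre. Within the immature neurons it was 1.03 (0.947 to 1.118) in the Kctd8 cluster and 1.08 (1.01 to 1.145) in the Hs3st4 cluster, both nearer 1 than for the class, and the Hs3st4 cluster, higher in Ntrk2, held 515 of 1495 WT and 675 of 1680 cKO immature neurons. Among the GE clusters, Ntrk2 was at 121 CPM in WT and 181 in cKO in the Adarb2 cluster and at 308 and 294 in the Sst cluster. In Cajal-Retzius cells Ntrk2 was lower in cKO, at 201 against 272 CPM (0.741, 0.618 to 0.888), and in endothelial-like cells it had 29 UMIs in WT and 4 in cKO.

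The share of AP-like cells with an Ntrk2 UMI was 44.5% (41.3 to 47.7%) in WT and 65.8% (63.1 to 68.4%) in cKO, at medians of 12445 and 12589 UMIs per cell. After thinning every cell to 5000 UMIs, which left out 176 WT and 174 cKO cells, it was 32.1% and 47.8%. As a background, thinned microglia-like cells had none of 19 and none of 17 cells with an Ntrk2 UMI, and red blood-like cells none of 15 in WT and 2 of 18 in cKO. In the unthinned cells, the shares were 3.23% and 6.12% in microglia-like cells, at medians of 11326 and 3459 UMIs.

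The AP ratio of Ntrk2 was above 1 in each of the 3 AP clusters, with an interval that included 1 in the third. In the cluster led by Tnc and Hes5, Ntrk2 was at 128 and 202.5 CPM in WT and cKO (1.58, 1.45 to 1.72), and in the cluster led by mitotic genes at 76.3 and 135 (1.77, 1.58 to 1.98). In the third AP cluster, with medians of 2684.5 and 2938 UMIs per cell, it was at 60.8 and 71.6 from 40 and 63 UMIs (1.18, 0.781 to 1.80). By phase score, the ratio was 1.28 (1.09 to 1.502) in G1, 1.85 (1.64 to 2.10) in S and 1.75 (1.59 to 1.92) in G2/M, so it was lowest in the AP-like cells scored as G1.

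Among the 3 members with at least 200 UMIs in APs, 1 (Ntrk2) was at least 1.5-fold higher in cKO, against 0.963% of 10276 genes with as many UMIs. In IPs it was again 1 of 3 (Ntrk2), against 1.28% of 9330 genes, and in immature neurons 1 of 5 (Ntf3), against 1.22% of 10742 genes. In migrating neurons and GE cells none of 3 was. The contrast chose the members, so these counts are given beside the background and nothing is read from them.

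Ntrk3 lay the other way. It was at 136 CPM in WT and 113 in cKO APs (0.837, 0.784 to 0.893), at 189 and 165 in IPs (0.877, 0.823 to 0.934) and at 358 and 323 in migrating neurons (0.904, 0.872 to 0.936). Of the classes with over 200 UMIs, the ratio was furthest from 1 in immature neurons, at 472 and 365 CPM (0.774, 0.753 to 0.795), and GE cells, not targeted by Cre, gave 159 and 129 (0.808, 0.756 to 0.864). Only Cajal-Retzius, fibroblast-like and red blood-like cells had a ratio above 1, from 12 and 33, 33 and 48, and 8 and 17 UMIs, with intervals that included 1. Sort1 was close to 1 in APs (0.993, 0.902 to 1.09), IPs (1.03, 0.946 to 1.11) and GE cells (1.05, 0.966 to 1.13), with intervals that included 1, and slightly above 1 in migrating (1.09, 1.03 to 1.14) and immature neurons (1.06, 1.01 to 1.11).

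The ligand Ntf3 had the largest ratio of the members in immature neurons, where 65 UMIs in WT stood against 221 in cKO, or 2.61 and 8.39 CPM (3.22, 2.43 to 4.32). At clustering resolutions of 0.4 and 1.2 in place of 0.8, the log2 ratio of Ntf3 in the cells then named immature neurons was 2.36 and 2.42 against 1.69 here. It was 3.57 (2.54 to 5.11) in the Kctd8 cluster and 2.61 (1.58 to 4.48) in the Hs3st4 cluster. The share of immature neurons with an Ntf3 UMI was 3.08% in WT and 9.11% in cKO, and 1.39% and 3.58% after thinning, against none of 1107 thinned cKO AP-like cells. Bdnf had 51 and 39 UMIs in immature neurons (0.725, 0.465 to 1.121), and in APs 2 and 16. Ngfr was at 7.29 and 9.04 CPM in immature neurons (1.24, 1.02 to 1.51), with 1.49 (1.09 to 2.05) in the Kctd8 cluster and 0.986 (0.761 to 1.28) in the Hs3st4 cluster.

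**Figure D4:**
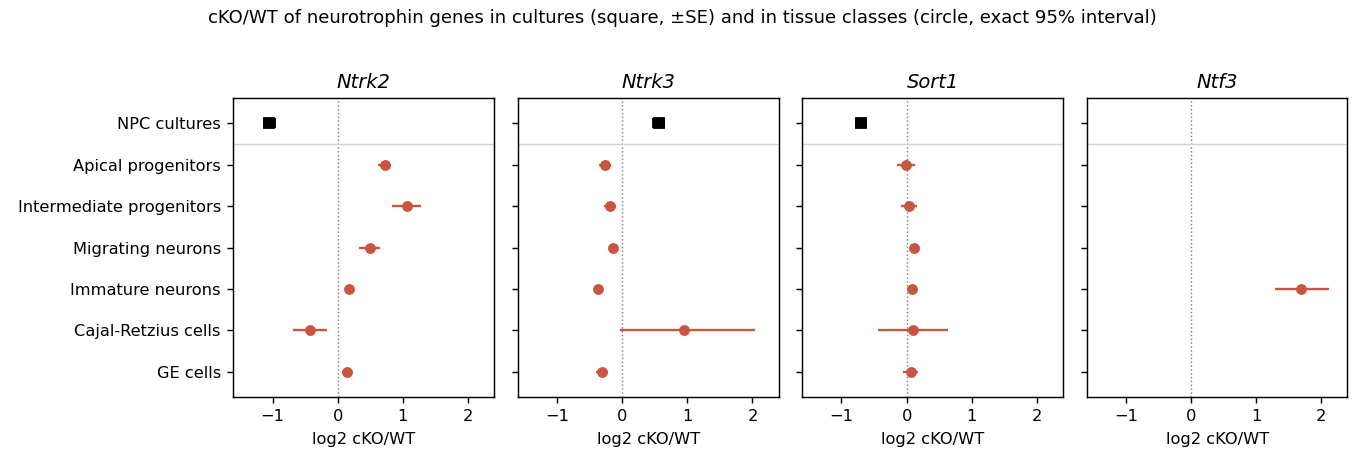
Log2 of cKO over WT for Ntrk2, Ntrk3, Sort1 and Ntf3 in the NPC cultures (square, with its SE, from 3 cultures each) and in 6 tissue classes (circles, with exact 95% intervals for counting error, 1 embryo each). Ntrk2 is at -1.05 in cultures and 0.72 in APs, Ntrk3 at 0.56 and -0.26, and Sort1 at -0.70 and -0.01; classes and cultures with too few counts are left out.

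Cultures and tissue progenitors thus differed in direction for both Trk receptors. Ntrk2 was at -1.05 (log2) in the cultures and 0.72 in APs, and Ntrk3 at 0.56 and -0.26. The cultures were grown with EGF and bFGF, and the tissue values come from 1 embryo per genotype of different sex. Culture values are whole-gene counts over all cells of a culture, while tissue values are 3′ UMIs of 1 class. Ntrk2 and Ntrk3 each have 6 coding 3′ ends, so the assays may weigh their transcripts differently. The oligodendrocyte list summed to 1902 to 2209 CPM in WT and 2276 to 2634 CPM in cKO cultures. The dorsal list summed to 108.9 to 113.8 and 94.55 to 99.72 CPM. The difference between the assays was not tested.

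The pathway genes were read in the same tissue classes. The neurotrophin-induced genes, all higher in the cKO cultures, had 3 ratios above and 5 below 1 among the 8 with at least 20 UMIs in APs, with a median log2 ratio of -0.35 against -0.001 over all genes. Egr1 was at 84.9 CPM in WT and 58.5 in cKO APs (0.689, 0.632 to 0.751) and Fos, an AP-1 subunit, at 63.6 and 30.8 (0.484, 0.434 to 0.540). Arc, a synaptic immediate early gene, was at 1.27 and 2.98 CPM from 16 and 54 UMIs (2.35, 1.33 to 4.40), and Klf10, an early response zinc finger gene, had a ratio of 1.49 (1.18 to 1.88). In IPs 4 ratios were above and 5 below 1 (median -0.04). In immature neurons 1 ratio was above 1 and 9 below (median -0.22), and in GE cells 7 above and 4 below (median 0.17). The Trk signaling genes lay at a median of 0.01, the other ligands and receptors at -0.08 and the p75NTR partners at -0.04 in APs. Sorcs1, higher in the cKO cultures, was at 179 and 178 CPM in APs (0.994, 0.942 to 1.05). Its ratio was 1.88 (1.39 to 2.56) in IPs and 2.43 (1.84 to 3.24) in immature neurons. It was 1.485 (1.36 to 1.62) in GE cells, 2.05 (1.68 to 2.52) in unnamed cells and 0.960 (0.591 to 1.55) in migrating neurons. Lingo1, lower in the cKO cultures, was at 44.8 and 34.2 CPM in immature neurons (0.764, 0.699 to 0.834) and at 1.43 and 0.828 in APs, from 18 and 15 UMIs. The Lingo1 ratio was 1.22 (0.912 to 1.635) in GE cells and 1.25 (1.02 to 1.53) in unnamed cells.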

How the data were processed

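The data were bulk RNA-seq of 6 NPC cultures and single-cell RNA-seq of 2 E14.5 embryos (10x Genomics). LACE-seq samples were not analysed here. For the cultures, the authors deposited raw gene counts. Their methods name HISAT2 with mm10 and DESeq2. No source used here names the counting program or its strand setting. For the tissue, the authors deposited UMI counts from Cell Ranger 7.0.0, per the file headers. No source used here says whether intronic reads were counted. The members and gene lists were chosen with earlier results of these data known.

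Culture counts were fitted with edgeR 4.0.16 in R 4.3.3 (filterByExpr, TMM, robust quasi-likelihood, two-sided, Benjamini-Hochberg at 0.05 over 14432 genes). CPM are TMM-scaled. In the tissue, barcodes needed 200 detected genes and a mitochondrial share of no more than 10%. They were clustered with Seurat 5.3.0 (2000 variable genes, 30 components, resolution 0.8), with 57 genes left out of the variable genes. Those were the members, the other ligands and receptors, a set of genes that includes Syncrip and Hes1, sex-linked genes and mitochondrial genes. The Trk signaling, p75NTR partner and neurotrophin-induced lists were not left out. Clusters were named from marker lists and called unnamed where too few markers were raised. Doublets called by Scrublet (scanpy 1.11.5), 298 in WT and 444 in cKO, were kept, and left out as an alternative. UMIs were summed per class and library. Intervals are exact Poisson, binomial or conditional (Clopper-Pearson) at 95% and cover counting error only. Ratios need at least 20 UMIs.

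The genes named were all 6 members, all 12 other ligands and receptors, in each other list the 3 largest rises and falls among called genes with a mean of at least 5 CPM, and the 3 genes most like each member with 200 UMIs. Some genes that this rule names are not reported here. Homer1, Fos, Arc, Klf10, Aqp4, Gja1, Stmn2 and Map2 were named after their values were seen. Replicate cultures differed by more than sampling noise. Replicate numbers are shared by the genotypes, but same-numbered cultures correlated at 0.26, -0.05 and 0.12 in their deviations from the group means, so the numbers were not taken to pair them. Alternatives were other scalings, filters, DESeq2 1.42.0, limma-voom (limma 3.58.1), a block, a sex covariate, each culture left out, and other clusterings.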

Additional observations from a re-analysis of the deposited data

Results flagged for a closer look

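The log2 cKO/WT difference of Ntrk2 was 1.77 larger in apical progenitors of the tissue (0.72) than in the NPC cultures (-1.05), because all cKO cultures lay below WT while the cKO embryo lay above. The difference between the 2 settings was not tested, since the tissue has 1 embryo per genotype. The 2 assays also count different cells and different parts of the transcript.

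For Ntrk3 the value in apical progenitors (-0.26) minus that in cultures (0.56) was -0.82, the opposite direction, and it was not tested either.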

How the results depend on the processing

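Of 70 alternative values of the 5 members fitted in the cultures, all kept the direction of Ntrk2, Ntrk3, Ngfr and Sort1, while Bdnf, whose cultures overlap, went to -0.02 without cKO replicate 1. Over scalings, filters, tools, the block, the sex covariate and each culture left out, the log2 fold change ran from -1.11 to -0.98 for Ntrk2, from 0.50 to 0.60 for Ntrk3, from -1.53 to -0.99 for Ngfr, from -0.74 to -0.66 for Sort1 and from -0.02 to 0.29 for Bdnf. Of 308 alternative values of the other named genes, 18 lost and 2 gained the call, the latter both of Rtn4r (with the sex covariate and without WT replicate 1). The Traf6 call was also lost with RLE scaling, with no count filter and with DESeq2.

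With each culture left out in turn, 15 to 24 of the pathway genes were called higher (20 with all cultures) and 9 to 22 lower (16 with all cultures), the lowest without cKO replicate 3. Over all genes the counts ran from 2068 to 3070 higher and from 2040 to 3275 lower.

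Replicate numbers were not taken to pair the cultures, though the correlations of same-numbered cultures cannot exclude a pairing. With the replicate block, 23 pathway genes were called higher and 22 lower, 3189 and 3216 over all genes, and Ntrk2 was at -1.05.

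In the tissue, taking 1 AP cluster alone gave a log2 ratio for Ntrk2 of 0.82 in the mitotic cluster and 0.24 in the low-UMI cluster. For Ntrk3 it gave -0.38 in the Tnc cluster, -0.14 in the mitotic and -0.36 in the low-UMI cluster, and for Sort1 0.17 in the Tnc cluster. Cells gated on AP markers gave -0.16 for Sort1, whose ratio in APs is near 0 and changed sign between these settings. Without the called doublets, Ntrk2 in IPs was at 1.36 and Ntrk3 in GE cells at -0.18. At a clustering resolution of 0.4, the ratios in migrating neurons were -0.28 for Ntrk3 and 0.045 for Sort1, and that of Ntf3 in immature neurons was 2.36. At 1.2, the ratios in immature neurons were 0.10 for Ntrk2, -0.28 for Ntrk3 and 2.42 for Ntf3. The WT levels (CPM) in immature neurons at 0.4 and 1.2 were 515 and 482.5 for Ntrk3, 1.87 and 1.89 for Ntf3 and 9.92 and 11.5 for Ngfr. The causes were not tested. With 1 embryo per genotype, the depth of the single-cell libraries limits counting error only, and for Bdnf, Ntf3 and Ngfr few UMIs limit every class but immature neurons.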
